A study of Mus musculus with 15 samples.

Results

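Small RNA from the mouse brain 14 days after intracerebral haemorrhage (ICH), in which blood escapes into the brain, was compared with small RNA from the brain after a sham operation. The members are all mature miRNAs counted in the libraries titled for ICH and for sham at day 14, with 5 libraries in each group, 10 of the 15 libraries sequenced. The names in the tables number 683, of which 652 passed the filter on low counts and were tested. The remaining 5 libraries came from mice with ICH that received Buyang Huanwu decoction (BYHWD), a herbal mixture, at 6.19 g/kg daily. No contrast with them was tested here. They entered the filter on low counts, the scaling, the estimate of the spread and the choice among rows of a name. Means and medians over 15 libraries, the principal component and the depth used for thinning also include them. All mice carry the label WT, and no allele, strain, sex or age is given in the sources used here. Sham and ICH mice both received distilled water by gavage every day, were perfused with saline at the end, and gave the basal ganglia of the operated side. How the haemorrhage was made and what the sham operation involved are not given in the sources used here, so the comparison is between the groups as they were labelled. The protocol text says that RNA was taken from an exosome pellet, after describing the isolation of tissue, and whether the counts come from whole tissue or from vesicles cannot be told apart here.

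A miRNA is a short RNA that is cut from a hairpin and loaded into an Argonaute protein, where its seed, the stretch near the 5′ end, pairs with messenger RNAs and lowers their output. Hairpins give a 5p and a 3p arm, and hairpins that lie close together are often cut from a common transcript. In the brain, different cell types carry different miRNAs: miR-9 and miR-124 mark neural cells, miR-219 and miR-338 oligodendrocytes, and miR-142 and miR-223 blood-derived and other haematopoietic cells. A bleed into the brain brings erythrocyte breakdown, activated microglia, entering leukocytes and later a glial and fibrotic scar.

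The sequences that the results turn on are given first, as mature miRNAs read 5′ to 3′ with the seed, bases 2 to 8, in capitals. They come from RefSeq on the build GRCm38.p6, to which 574 of the 683 names were matched. The first set holds called miRNAs of leukocytes and of the Hox clusters, with miR-142a-5p as the other arm of its hairpin and miR-10b-5p as the seed partner of miR-10a-5p.
miR-155-5p: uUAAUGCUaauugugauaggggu
miR-142a-3p: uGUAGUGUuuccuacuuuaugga
miR-142a-5p: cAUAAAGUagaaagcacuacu
miR-10a-5p: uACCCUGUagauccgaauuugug
miR-10a-3p: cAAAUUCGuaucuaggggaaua
miR-10b-5p: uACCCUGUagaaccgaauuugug
The second set holds the seed families of miR-21 and of miR-25 and miR-92, whose summed levels, scaled to library size, were higher in every ICH library than in every sham library.
miR-21a-5p: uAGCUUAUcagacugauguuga
miR-21c: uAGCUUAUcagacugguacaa
miR-92b-3p: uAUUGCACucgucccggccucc
miR-25-3p: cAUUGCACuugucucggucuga
miR-92a-3p: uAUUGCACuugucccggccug
miR-32-5p: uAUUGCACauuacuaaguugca
miR-363-3p: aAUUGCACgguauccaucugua
The third set holds miRNAs with a fold change below 0 after ICH, 2 of the imprinted Dlk1-Dio3 region and miR-344d-3p, which has the seed of miR-410-3p, followed by 3 abundant miRNAs that stood high in sham libraries 4 and 5.
miR-379-5p: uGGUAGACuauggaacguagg
miR-410-3p: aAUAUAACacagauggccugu
miR-344d-3p: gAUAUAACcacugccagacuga
miR-30a-5p: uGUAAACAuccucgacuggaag
miR-30e-5p: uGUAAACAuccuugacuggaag
miR-101a-3p: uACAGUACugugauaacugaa

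On GRCm38.p6, miR-155-5p lies at chr16:84714143-84714165 on the plus strand, in an exon of the long noncoding gene Mir155hg. The arms of miR-142a lie at chr11:87756867-87756887 (5p) and chr11:87756903-87756925 (3p), also on the plus strand, in an intron of Mir142hg. For miR-10a the positions are chr11:96317186-96317208 (5p) and chr11:96317227-96317248 (3p) on the plus strand, in no annotated gene other than the miRNA. The related miR-10b-5p lies at chr2:74726074-74726096 on the plus strand, in an intron of Hoxd3 and Hoxd4. An exon of Vmp1 holds miR-21a-5p, at chr11:86584120-86584141 on the minus strand. In the Dlk1-Dio3 region of chromosome 12, miR-379-5p lies at chr12:109709065-109709085 outside other annotated genes and miR-410-3p at chr12:109743764-109743784 in an exon of the noncoding gene Mirg, both on the plus strand. The mature sequences of miR-10a-5p and miR-10b-5p have the same length of 23 bases and differ by 1 substitution, U12A, given as the base of miR-10a-5p, the position counted from 1 at the 5′ end and the base of miR-10b-5p.

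Library totals, with each miRNA counted once, were 6004486 to 9305297 in sham and 6539625 to 9860236 in ICH. Levels below are counts normalised to library size (CPM), with sizes scaled by the trimmed mean of M-values (TMM) over all 15 libraries. On these sizes the miRNAs tested summed to 1498730 CPM in sham 4 and 1387129 CPM in sham 5. The sums were 836843 to 929990 CPM in sham 1 to 3 and 921226 to 1047860 CPM in ICH. Levels in sham 4 and sham 5 are therefore higher on this scaling than on library totals alone. The neural miR-9-5p was the most abundant miRNA in the set, at 101894 ± 8162 CPM across sham and 104489 ± 6909 CPM across ICH (SD, n = 5), a high level of a neural marker in every library of the labelled brain tissue. Sham libraries 4 and 5 stood apart from the other 13. The first principal component held 31.1% of the variance, and they scored 12.5 and 9.45 on it against -4.00 to 0.546 for the rest. Among the 420 miRNAs that averaged 10 CPM or more, 57 lay more than 2-fold from their median over the 15 libraries in sham 4 and 44 in sham 5, against 15 to 25 in sham 1 to 3 and 0 to 17 in the ICH libraries. The SD of log2 CPM was larger in sham than in ICH for 337 of these 420, with a median of 0.320 in sham, 0.246 in sham 1 to 3 alone and 0.204 in ICH. The 10 most abundant miRNAs took 56.0% and 54.6% of the counts in sham 4 and sham 5, against 44.4 to 49.1% in sham 1 to 3. For results that rested on these libraries, values without them are given as well.

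Between ICH and sham, 5 of the 652 miRNAs tested were called (0.767%), all higher after ICH: miR-147-3p, miR-142a-3p and miR-155-5p of leukocytes, and both arms of miR-10a. None was called lower. Calls were made with edgeR's quasi-likelihood F-test at a Benjamini-Hochberg adjusted p under 0.05 over all 652. At an unadjusted p under 0.05 the same test gave 63 higher (9.66%) and 74 lower (11.3%). DESeq2 called 27 lower (3.98%) and limma-voom 0 (0%). Levels did not overlap for 17 miRNAs with each ICH library above each sham library (2.61%) and for 9 with all ICH libraries below (1.38%), and 8 of these 26 had means under 10 CPM. Besides the called miRNAs, those above included miR-21a-5p, miR-92b-3p, miR-25-3p and miR-98-5p, and those below included miR-379-5p, miR-3099-3p, miR-412-5p and miR-9-3p.

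**Figure D1:**
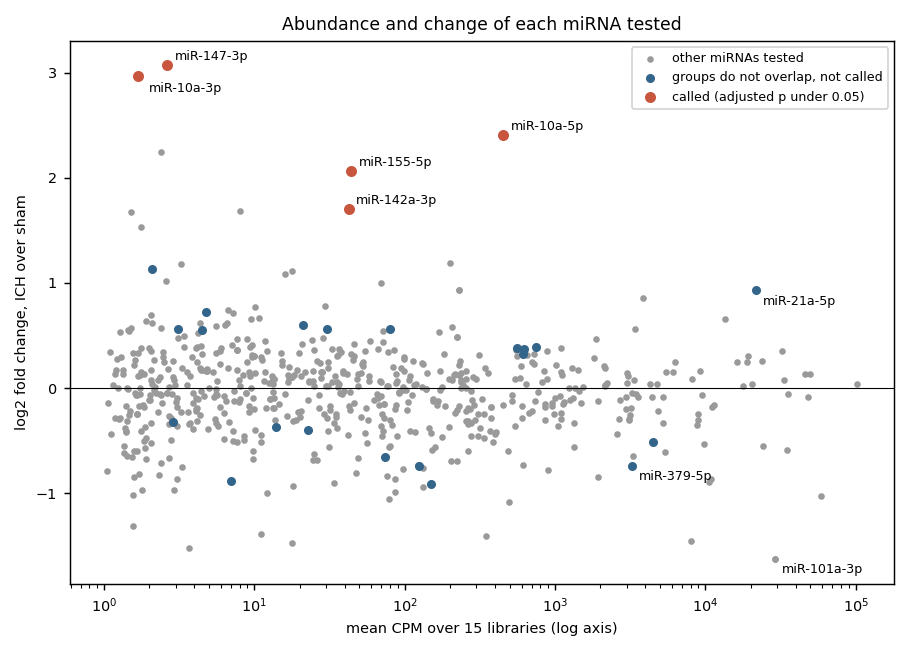
Each point is 1 of the 652 miRNAs tested, with its mean CPM over the 15 libraries on a log axis and its log2 fold change, ICH over sham. Orange points are the 5 called by edgeR, all above 0, and blue points are the uncalled miRNAs whose sham and ICH libraries do not overlap; most points lie near 0 at every level.

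miRNAs of leukocytes and activated microglia were the group with the most calls. Of 9 tested arms of miR-155, miR-142a, miR-223, miR-147 and miR-150, 8 had a fold change above 0, 7 had an unadjusted p under 0.05 in the higher direction (77.8%, against 9.66% of all 652) and 3 were called (against 0.767%), with a median log2 fold change of 1.67 against -0.02 over all 652. Their summed level was 307 to 428 CPM across sham and 537 to 749.5 CPM across ICH, with no overlap. In bulk tissue, more cells of a type and more of the RNA per cell cannot be told apart. Of these arms, miR-147-3p, miR-147-5p and miR-223-5p averaged 0.44, 0.70 and 0.82 CPM in sham. They passed the filter on low counts through groups with higher levels. All 3 count among the 7, miR-147-3p is among the 3 calls, and the median of 1.67 is the value of miR-147-5p. The share, the number of calls and the median therefore rest partly on arms that entered the test because they were higher in other groups than sham. This list and the others below were chosen with earlier results of these data known, so the shares are not independent support. miR-155-5p, which is induced in activated macrophages and microglia, stood at 12.7, 13.5, 13.3, 14.7 and 23.9 CPM in sham 1 to 5 and at 87.9, 53.6, 67.8, 56.2 and 59.3 CPM across ICH 1 to 5. Every ICH library was more than 2-fold above every sham library, and sham 5 was the highest of the sham group. The fitted change was 4.18-fold (log2 fold change 2.06, SE 0.23, adjusted p = 6.26e-05, edgeR), and it was called in all 21 alternatives tried.

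miR-142a is made in haematopoietic cells. The 3p arm was at 19.8, 24.3, 12.8, 12.2 and 19.6 CPM across sham and 52.5, 56.3, 82.2, 37.0 and 60.2 CPM across ICH. The lowest ICH library, ICH 4, was above the highest sham library, sham 2, and the arm was called in edgeR (log2 fold change 1.70, SE 0.29, adjusted p = 0.00395) and in all 21 alternatives. Its 5p arm was at 82.6, 99.6, 80.7, 133 and 191 CPM across sham and 338, 262, 265, 179.9 and 287 CPM across ICH (log2 fold change 1.19, SE 0.30, adjusted p = 0.0687). Here ICH 4 lay below sham 5, so the groups overlapped, and the arm did not pass the test with all libraries. Without sham 4 and 5 it did (1.60, adjusted p = 0.0169).

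miR-147-3p, an inflammation-induced miRNA of macrophages, was rare, with levels of 0.557, 0.501, 0.300, 0.194 and 0.646 CPM across sham and 5.39, 3.24, 4.20, 1.76 and 3.92 CPM across ICH. These levels rest on 15 reads in all in sham and 157 in ICH. The groups did not overlap, and the miRNA was called (log2 fold change 3.07, SE 0.41, adjusted p = 0.000328, edgeR) and stayed called in each of the 20 alternatives that gave a value. Its 5p arm was at 0.375 to 1.25 CPM across sham and 1.20 to 3.83 CPM across ICH and was not called (1.67, adjusted p = 0.0788). miR-223-3p, a miRNA of neutrophils and other myeloid cells, was at 3.76, 4.00, 3.90, 1.36 and 3.23 CPM across sham and 8.26, 12.8, 22.2, 2.72 and 7.47 CPM across ICH. ICH 4 was within the sham range, the other 4 ICH libraries were above it, and the test was not passed (log2 fold change 1.69, SE 0.49, adjusted p = 0.0902). The lymphocyte miRNA miR-150-5p lay at 143 to 265 CPM across sham and 184 to 256 CPM across ICH (0.12, adjusted p = 0.709), with its sign turned without sham 4 and 5 (-0.08).

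miR-10a comes from the Hox clusters, whose genes set position along the body axis and are little used in the forebrain. Its 5p arm was at 105, 79.5, 164, 150.1 and 140.1 CPM in sham 1 to 5 and at 473, 467, 1513, 386 and 547 CPM across ICH 1 to 5. Each ICH library lay above each sham library, and ICH 3 stood far above the other 4. The change was called by edgeR (log2 fold change 2.41, SE 0.43, adjusted p = 0.00666). Without ICH 3 it was 1.87 (adjusted p = 0.0110), and the call was lost in 1 of the 21 alternatives, the fit without sham 4 and 5 (2.53, adjusted p = 0.0623). The 3p arm, with 10 reads in all sham libraries and 97 in all ICH libraries, was at 0.215 to 0.388 CPM and 0.801 to 5.31 CPM and was called (log2 fold change 2.97, SE 0.63, adjusted p = 0.0296). Its call was lost without sham 1, sham 4, sham 5, ICH 2 or ICH 3 taken out singly, where the adjusted p was 0.0637 to 0.0947, and without sham 4 and 5 together (adjusted p = 0.0793). With so few sham reads, this arm passed the filter on low counts through groups with higher levels. Of the 21 alternatives, 19 gave it a value, and the fit of the 10 sham and ICH libraries alone was not among them.

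miR-10b-5p, which differs from miR-10a-5p only by U12A, was not called. It stood at 63.1, 47.9, 106, 141 and 64.1 CPM across sham and 76.3, 79.7, 98.3, 81.7 and 106 CPM across ICH (0.07, adjusted p = 0.904), with the ICH libraries inside the sham range. Of the counts with this seed, miR-10a-5p held 60.2% in sham and 88.5% in ICH. The choroid plexus, which lies in the neighbouring ventricle, is marked by miR-204, miR-211 and miR-1298. Their summed level was 1807 to 18393 CPM across sham and 2008 to 17654 CPM across ICH, and none of their 5 arms was called. miR-1298-5p was at 1024, 15218, 2068, 7326 and 883 CPM across sham and 5795, 3292, 14196, 967 and 7230.4 CPM across ICH. It was highest in sham 2, the library with the lowest miR-10a-5p, and next in ICH 3, the library with the highest. The part of the choroid plexus in the miR-10a difference was not tested further.

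**Figure D2:**
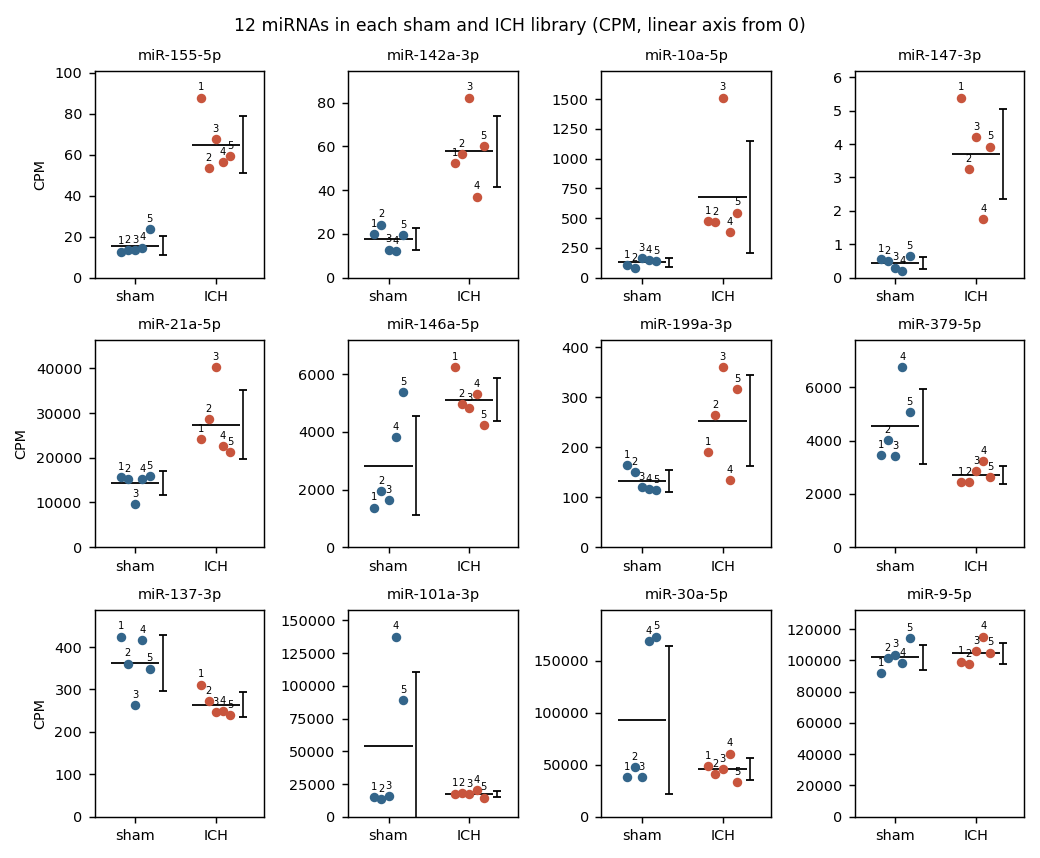
Levels in CPM of 12 miRNAs in each sham (blue) and ICH (orange) library, numbered by replicate, on linear axes from 0; horizontal lines are means and bars 1 SD (n = 5). The groups do not overlap for miR-155-5p, miR-142a-3p, miR-10a-5p, miR-147-3p, miR-21a-5p and miR-379-5p, while sham 4 and sham 5 alone are high for miR-101a-3p and miR-30a-5p.

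Of the miRNAs tied to injury and to feedback on NF-kB signalling, 4 of 5 tested arms had an unadjusted p under 0.05 in the higher direction, against 9.66% of all 652, and none was called, with a median log2 fold change of 0.85 (1.01 without sham 4 and 5). miR-21a-5p, a miRNA of reactive astrocytes, macrophages and fibroblasts, was at 15736, 15223, 9686, 15255 and 15928 CPM across sham and 24243, 28582, 40253, 22562 and 21351 CPM across ICH. Every ICH library exceeded every sham library, sham 3 was the lowest and ICH 3 the highest. The adjusted p missed the threshold narrowly (log2 fold change 0.93, SE 0.21, adjusted p = 0.0502, edgeR), and 8 of the 21 alternatives called it, DESeq2 among them (adjusted p = 0.00877). Its rare 3p arm was at 0.751 to 1.40 CPM across sham and 1.92 to 3.37 CPM across ICH, also without overlap (1.13, adjusted p = 0.0502). This arm, at a mean of 1.17 CPM in sham, passed the filter on low counts through groups with higher levels. Its place among the 4 arms above and its lack of overlap are therefore not independent support.

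miR-146a-5p, which is induced by NF-kB and damps its signalling, was at 1372, 1941, 1633, 3824 and 5382 CPM across sham and 6243, 4955, 4810.2, 5314 and 4241 CPM across ICH. Sham 1 to 3 were below all ICH libraries, while sham 4 and sham 5 lay close to or within the ICH range. With all libraries the test was not passed (log2 fold change 0.85, SE 0.31, adjusted p = 0.126), and without sham 4 and 5 it was (1.62, adjusted p = 3.10e-05). The related miR-146b-5p showed the same split in sham, with 1534, 1624, 1903, 5322 and 5352 CPM against 2579, 2476, 2886, 2979 and 1895 CPM across ICH. Its log2 fold change was -0.30 (adjusted p = 0.654) with all libraries and 0.59 (adjusted p = 0.0709) without these. The hypoxia-induced miR-210-3p lay at 77.5 to 112 CPM across sham and 76.9 to 116 CPM across ICH (-0.04, adjusted p = 0.906).

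Among miRNAs of mesenchymal cells and fibroblasts, 4 of 6 tested arms with reads of their own had an unadjusted p under 0.05 in the higher direction, against 9.66% of all 652, and none was called, with a median log2 fold change of 0.86. miR-199a-3p, whose counts equal those of miR-199b-3p because their mature sequences are the same, was at 164, 149.7, 119.5, 116 and 115 CPM across sham and 191, 265, 360.2, 135 and 316 CPM across ICH (log2 fold change 0.93, SE 0.24, adjusted p = 0.0687). ICH 4 was within the sham range and the other 4 ICH libraries were above it. miR-199a-5p was at 25.0 to 56.4 CPM across sham and 38.6 to 113 CPM across ICH (1.00, adjusted p = 0.105), and miR-214-3p, cut from the same transcript as miR-199a, at 0.800 to 3.10 CPM and 1.60 to 6.17 CPM (1.18, adjusted p = 0.105). ICH 4 was the lowest ICH library for both. The chondrocyte miRNA miR-140-3p had a log2 fold change of -0.26 (adjusted p = 0.575) that turned to 0.31 without sham 4 and 5.

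The X-linked cluster that holds miR-322, miR-351, miR-450, miR-503 and miR-542, known from muscle and vessel growth, had 7 of 8 tested arms above 0, 3 with an unadjusted p under 0.05 in the higher direction (37.5%, against 9.66% of all 652) and none called. miR-450a-5p was at 17.7, 15.5, 17.3, 12.6 and 13.3 CPM across sham and 19.5, 20.5, 27.8, 18.4 and 29.7 CPM across ICH (log2 fold change 0.60, SE 0.16, adjusted p = 0.0788), with each ICH library above each sham library. Its neighbour miR-450b-5p, at 2.80 to 4.09 CPM and 4.43 to 6.67 CPM, did not overlap between the groups either (0.72, adjusted p = 0.0502). miR-542-3p went the other way (-0.99, adjusted p = 0.269), with sham 4 and sham 5 at 297.6 and 234 CPM against 37.6 to 55.2 CPM in sham 1 to 3, and its value without them was 0.51.

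The proliferation-linked miR-17-92 cluster and its paralogs had 11 of 16 tested arms above 0, 4 with an unadjusted p under 0.05 higher (25%, against 9.66% of all 652) and 1 lower (6.25%, against 11.3%), a median log2 fold change of 0.25, and none called. Small differences recurred among miRNAs with the seed AUUGCAC. miR-25-3p was at 511, 567, 573, 468 and 605 CPM across sham and 695, 645, 749, 726 and 706 CPM across ICH (0.37, adjusted p = 0.101). miR-92b-3p, a miRNA of neural progenitors from a locus of its own, was at 597, 646, 686, 487 and 708 CPM across sham and at 827, 825, 829, 795 and 818 CPM across ICH (log2 fold change 0.39, SE 0.11, adjusted p = 0.0854). For both miRNAs every ICH library was above every sham library, and the ICH values of miR-92b-3p fell within a narrow band. miR-92a-3p was at 376 to 596 CPM and 544 to 654 CPM (0.36, adjusted p = 0.143). miR-19b-3p of the same cluster had a log2 fold change of -1.05 (adjusted p = 0.178), with sham 4 and sham 5 at 236.4 and 240.3 CPM against 42.9 to 52.3 CPM in sham 1 to 3, and its sign turned without them (0.33, adjusted p = 0.346).

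Lower fold changes were frequent among miRNAs of the Dlk1-Dio3 region, an imprinted locus whose miRNAs are made from the maternal chromosome and are abundant in neurons. Of its 88 tested miRNAs, 73 had a fold change below 0 and 15 above it, 25 had an unadjusted p under 0.05 in the lower direction (28.4%, against 11.3% of all 652) and none was called. Because these miRNAs come from a single region and were read in the same libraries, they are not 88 independent observations. They are also part of the 652. The median log2 fold change was -0.23, and -0.27 with 77 of 88 below 0 when sham 4 and 5 were left out. The summed level of the region was 110127 to 140999 CPM across sham and 104046 to 121522 CPM across ICH, with overlap. miR-379-5p was at 3444, 4011, 3403, 6752 and 5077 CPM across sham and 2456, 2431, 2850.0, 3239.6 and 2634 CPM across ICH (log2 fold change -0.74, SE 0.19, adjusted p = 0.0687). All ICH libraries were below all sham libraries, and sham 4 and sham 5 were the highest. Without them the fold change was -0.42 (adjusted p = 0.156).

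Other members of the region differed in how far they rested on sham 4 and sham 5. miR-380-5p was at 326, 202, 285, 1334 and 753 CPM across sham and 205, 255, 188, 205 and 238 CPM across ICH, and its log2 fold change of -1.41 (adjusted p = 0.0854) was -0.32 without them. For miR-410-3p the values were -0.78 (adjusted p = 0.0962) and -0.27, and for miR-412-5p -0.65 (adjusted p = 0.0962) and -0.37. Fold changes of miR-369-5p, miR-487b-3p and miR-665-3p changed little without them. miR-369-5p was at 262, 241, 182, 215.02 and 171 CPM across sham and 157, 156, 135, 154 and 172 CPM across ICH (-0.47, adjusted p = 0.0902), and -0.57 without sham 4 and 5. miR-487b-3p was at 367 to 460.1 CPM across sham and 271 to 379 CPM across ICH (-0.41, adjusted p = 0.0902, and -0.37 without them). miR-665-3p had -0.62 (adjusted p = 0.0962) and -0.57. The most abundant member, miR-127-3p, stood at 48842 ± 9582 CPM across sham and 45925 ± 3811 CPM across ICH (SD, n = 5), with a log2 fold change of -0.09 (adjusted p = 0.730).

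Among 18 tested arms of neuronal miRNAs, 12 had a fold change below 0 (66.7%, against 52.3% of all 652), 4 had an unadjusted p under 0.05 in the lower direction (22.2%, against 11.3%) and none was called, with a median log2 fold change of -0.14 and -0.19 without sham 4 and 5. miR-137-3p, a regulator of neuronal maturation and synapses, was at 424, 361, 262, 416 and 349 CPM across sham and 312, 273, 247, 249.8 and 239.3 CPM across ICH (log2 fold change -0.46, SE 0.13, adjusted p = 0.0902). All ICH libraries were below 4 of the 5 sham libraries, and sham 3 was within the ICH range. miR-9-3p was at 4540.4, 4369, 4149, 9313 and 5655 CPM across sham and 3741, 3790.1, 3941, 4115 and 4049 CPM across ICH (-0.51, adjusted p = 0.126), with all ICH libraries below and a value of -0.16 (adjusted p = 0.456) without sham 4 and 5, while miR-9-5p from the same hairpins had 0.04 (adjusted p = 0.892). miR-128-3p, of mature neurons, had a log2 fold change of 0.25 (adjusted p = 0.453). The activity-regulated miR-132 had -0.10 for its 3p and -0.17 for its 5p arm (adjusted p = 0.801 and 0.690).

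**Figure D3:**
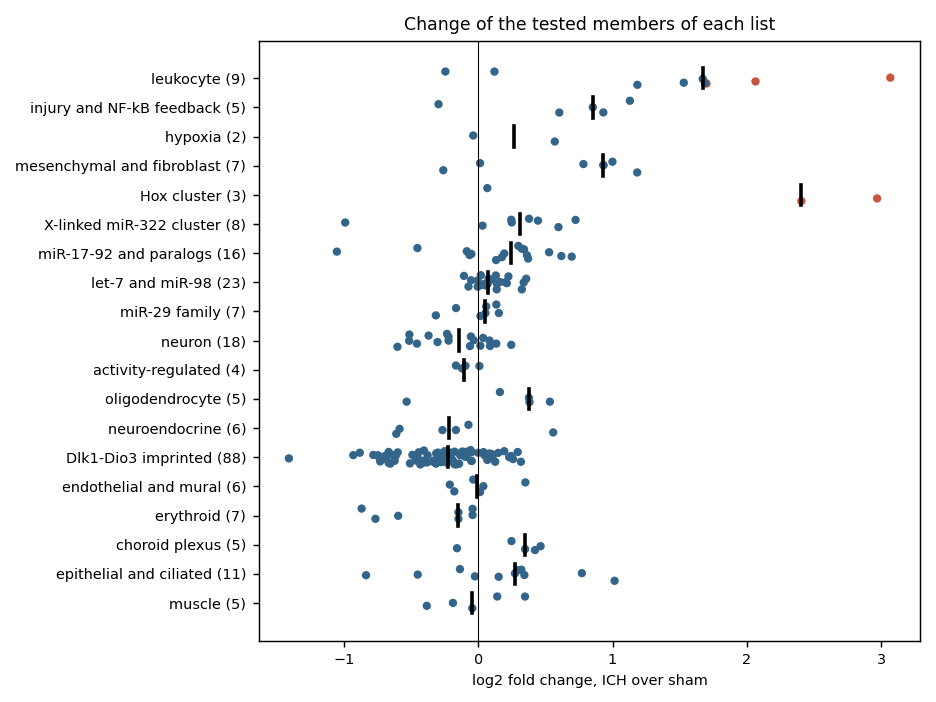
Log2 fold change, ICH over sham, of the tested members of each list of miRNAs, with the number tested in brackets; points are miRNAs, orange points are called and black bars are list medians, and names that share reads are each drawn. The leukocyte, Hox cluster, mesenchymal and injury lists have medians of 0.85 or more, and most points of the Dlk1-Dio3 list lie below 0.

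The markers of oligodendrocytes and endocrine cells gave no call. In oligodendrocytes, 4 of 5 tested arms had a fold change above 0 with a median of 0.38. miR-338-3p, which drives the maturation of these cells, was at 301 to 526 CPM across sham and 547 to 629 CPM across ICH without overlap (0.38, adjusted p = 0.178), and 0.17 without sham 4 and 5. miR-219a-5p had 0.53 (adjusted p = 0.205). miR-219a-2-3p had -0.53 (adjusted p = 0.356), with 23192 and 19415 CPM in sham 4 and sham 5 against 5756 to 9678 CPM in the other sham libraries, and 0.30 without them. miR-375-3p, a miRNA of endocrine cells, was at 68.7, 68.5, 51.6, 82.6 and 62.8 CPM across sham and 102, 102, 115, 87.8 and 84.0 CPM across ICH, with no overlap and ICH above (log2 fold change 0.56, SE 0.15, adjusted p = 0.0788). The neuronal and endocrine miR-7a-5p and miR-7b-5p had -0.59 and -0.61 (both adjusted p = 0.372), and -0.31 and -0.25 without sham 4 and 5.

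Markers of red cells were read here in mice perfused with saline, 14 days after the operation. The arms of miR-486a and miR-486b have the same counts, which leaves 5 tested arms of miR-451a, miR-144 and miR-486 with reads of their own. All 5 had a fold change below 0, with none called, none at an unadjusted p under 0.05 and a median of -0.60 (-0.79 without sham 4 and 5). miR-451a was at 271, 112, 82.9, 39.4 and 89.3 CPM across sham and 62.7, 86.8, 108, 57.8 and 34.7 CPM across ICH (-0.77, adjusted p = 0.453), with sham 1 the highest and the groups overlapping, and -1.16 without sham 4 and 5. Of the vessel markers, miR-126a-3p of endothelial cells had -0.18 (adjusted p = 0.518) and miR-143-3p of smooth muscle 0.04 (adjusted p = 0.939), the latter 0.47 without sham 4 and 5. The medians were -0.01 for 6 endothelial and mural arms, 0.27 for 11 epithelial and ciliated arms and -0.04 for 5 muscle arms. The let-7 family and miR-98, which rise as neural cells mature, had 18 of 22 arms with reads of their own above 0 with a median of 0.09. Of all 652, 47.7% were above 0. Without sham 4 and 5 the let-7 and miR-98 median was 0.06, and 14 of all 23 names in the list were above 0. The 7 arms of miR-29, which lowers collagen messages, had a median of 0.05 with 5 above 0, and -0.05 with 2 above 0 without sham 4 and 5.

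The low fold changes of several abundant miRNAs rested on sham 4 and sham 5. miR-101a-3p, whose counts are shared with miR-101c, was at 14938, 13674, 15746, 137472 and 88982 CPM across sham and 17663, 17867, 17114, 20621 and 14541 CPM across ICH. Sham 1 to 3 were near the ICH libraries and sham 4 and sham 5 far above both, and the log2 fold change of -1.62 (SE 0.55, adjusted p = 0.114) became 0.24 without them. miR-30a-5p went from -1.02 (adjusted p = 0.161) to 0.14 and miR-30e-5p from -1.45 (adjusted p = 0.106) to 0.08. miR-335-5p went from -1.09 to -0.16 and miR-185-5p from -0.85 (adjusted p = 0.0902) to -0.22. Of 420 miRNAs that averaged 10 CPM or more, 6 were more than 2-fold higher and 10 more than 2-fold lower with all libraries, and 9 and 3 without sham 4 and 5. The sign of the fold change turned for 128 of 652. What sets these libraries apart was not tested.

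**Figure D4:**
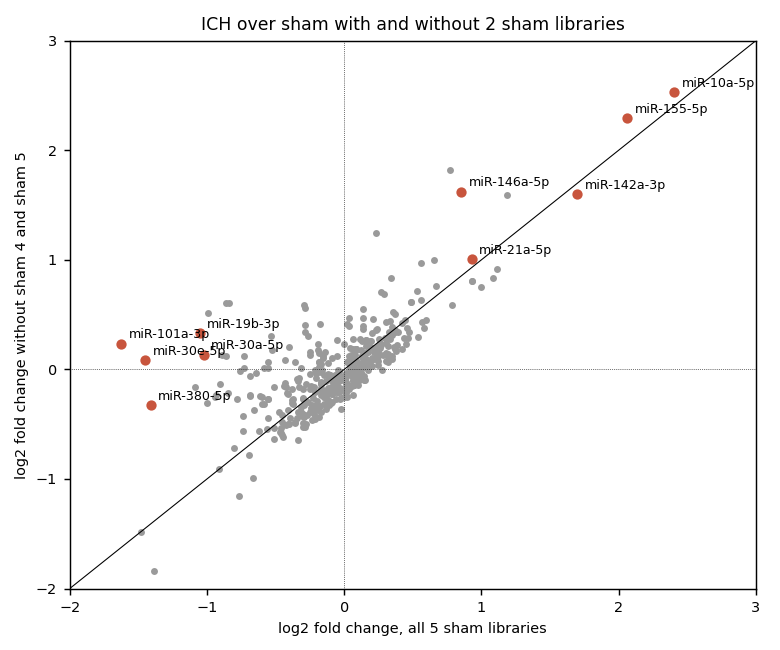
Log2 fold change, ICH over sham, with all 5 sham libraries (x axis) and without sham 4 and sham 5 (y axis) for the 420 miRNAs that averaged 10 CPM or more; the solid line marks equal values. miR-10a-5p, miR-155-5p and miR-142a-3p lie near the line, miR-146a-5p lies above it at 1.62, and miR-101a-3p and miR-30e-5p move from below -1 to near 0.

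Counts summed over miRNAs that share a seed, among the 574 names matched to RefSeq, were tested for 55 families. Of these, 2 were called (3.64%), both higher after ICH, and 13 had an unadjusted p under 0.05 (23.6%), 8 higher (14.5%) and 5 lower (9.09%). Without sham 3 the count was 8 (14.5%), and without sham 4 and 5 it was 4 (7.27%). The family of miR-10a-5p and miR-10b-5p was at 168, 127, 270.0, 291 and 204 CPM across sham and 549, 546, 1611, 468 and 653 CPM across ICH (log2 fold change 1.85, SE 0.38, adjusted p = 0.0132, edgeR). The family of miR-21a-5p and miR-21c was at 15744, 15228, 9689, 15258 and 15932 CPM across sham and 24250.4, 28590.0, 40261, 22568 and 21357 CPM across ICH (log2 fold change 0.93, SE 0.22, adjusted p = 0.0173), and miR-21a-5p made up 99.97% of it. Its adjusted p is taken over 55 families, and that of the single miRNA over 652 miRNAs. In 3 of the 55 families (5.45%) each ICH library was above each sham library, and in none was each below. The miR-21 call was lost without sham 4, ICH 2 or ICH 3 taken out singly (adjusted p = 0.0550 to 0.0638). The family of miR-25, miR-32, miR-92 and miR-363 was at 1563, 1678, 1895, 1359 and 1897 CPM across sham and 2157, 2132, 2186, 2228 and 2199 CPM across ICH, with each ICH library above each sham library (log2 fold change 0.38, SE 0.11, adjusted p = 0.0612). It was not called with all libraries and was called without sham 4 and 5 (0.34, adjusted p = 0.0432).

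Among families with lower levels, the smallest p-values were those of miR-410-3p with miR-344d-3p and miR-344e-3p (-0.76, adjusted p = 0.0612) and of miR-30a, miR-30c, miR-30e and miR-384 (-0.98, adjusted p = 0.166), neither of them called. Without sham 4 and 5 they were -0.26 and 0.03. The miR-30 family was at 54644, 69448, 50102, 209091 and 205902 CPM across sham and 63012, 54240.4, 59111, 76007 and 45302 CPM across ICH, so that sham 1 to 3 and the ICH libraries covered one range and sham 4 and sham 5 another. This sum does not include miR-30b-5p or miR-30d-5p.

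**Figure D5:**
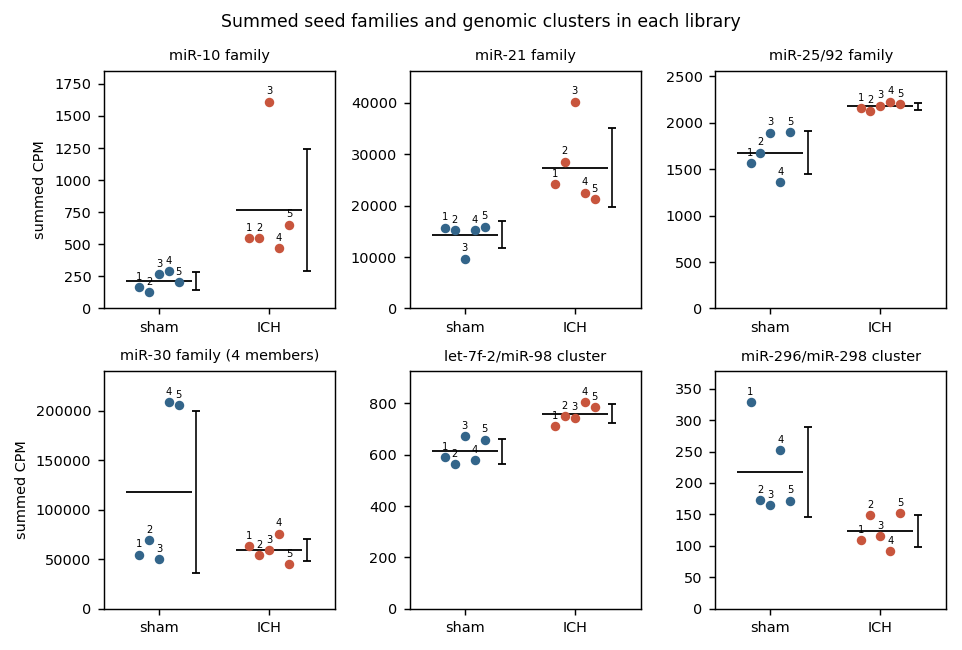
Summed CPM of 4 seed families and 2 genomic clusters in each sham (blue) and ICH (orange) library, numbered by replicate, on linear axes from 0; lines are means and bars 1 SD (n = 5). The miR-10, miR-21 and miR-25/92 families and the let-7f-2/miR-98 cluster do not overlap between the groups, with ICH above. The miR-296/miR-298 cluster does not overlap either, with ICH below. Sham 4 and sham 5 alone are high for the miR-30 family, drawn without miR-30b and miR-30d.

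Counts summed over hairpins within 10 kb of each other on a strand were tested for 38 genomic clusters, and 1 was called (2.63%), with 10 at an unadjusted p under 0.05 (26.3%), 7 higher (18.4%) and 3 lower (7.89%). These sums leave out names not matched to RefSeq and miRNAs encoded at several loci. The called cluster holds let-7f-2 and miR-98 at chrX:151912346-151913321. Its sum is of let-7f-2-3p, miR-98-3p and miR-98-5p, without let-7f-5p. It was at 592, 563, 671, 579 and 659 CPM across sham and 712, 750.0, 745, 806 and 786 CPM across ICH (log2 fold change 0.31, SE 0.08, adjusted p = 0.0335, edgeR). Each ICH library was above each sham library, but 10 of 15 alternatives lost the call, with adjusted p up to 0.183. Most of the sum was miR-98-5p, at a mean of 533 CPM in sham and 667 CPM in ICH, which was not called alone (0.32, adjusted p = 0.0984). The cluster of miR-25, miR-93 and miR-106b on chromosome 5 was at 1136, 1279.6, 1148, 1070.1 and 1255 CPM across sham and 1386, 1353, 1468, 1428 and 1366 CPM across ICH, also without overlap (0.25, adjusted p = 0.106). The imprinted cluster of miR-296 and miR-298 at chr2:174267047-174267585 was the one cluster with all ICH libraries below all sham libraries, at 329, 173, 165, 253 and 172 CPM and 109.7, 148, 115, 92.1 and 152 CPM (log2 fold change -0.82, SE 0.29, adjusted p = 0.106). The clusters of miR-23a and of miR-23b, with miR-27 and miR-24, had 0.34 and 0.26 (both adjusted p = 0.106), and 0.18 and 0.22 without sham 4 and 5. Neither sum includes miR-23b-3p or miR-24-3p. In the Dlk1-Dio3 region the sum from miR-379 onward was at 42802 to 53838 CPM across sham and 40401 to 47079.5 CPM across ICH (-0.13, adjusted p = 0.409), beside -0.74 for miR-379-5p alone.

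The ratio of the 5p to the 3p arm, taken within each library so that the scaling cancels, was tested for 105 hairpins whose arms both had a mean of at least 10 CPM. By limma none was called (0%), and 16 had an unadjusted p under 0.05 (15.2%), 5 higher (4.76%) and 11 lower (10.5%). The log2 ratio of miR-345 was -1.82, -1.50, -0.94, -2.34 and -1.79 in sham and -0.75, -1.11, -1.11, -1.06 and -0.89 in ICH, a difference of 0.69 (SE 0.20, adjusted p = 0.187). Sham 3 was within the ICH range, and the difference was 0.43 without sham 4 and 5. That of miR-337, of the Dlk1-Dio3 region, was 5.05, 5.04, 4.58, 5.18 and 4.96 in sham and 4.07, 4.10, 4.52, 4.51 and 4.56 in ICH, with all ICH libraries below (-0.61, adjusted p = 0.187), and 1 hairpin in each direction had groups that did not overlap (0.952%). For miR-139 the difference was 0.46, for miR-671 -0.53, for miR-369 -0.37 and for miR-145a 0.59, each with an adjusted p of 0.187. Without sham 3, limma called 6 of 106 (5.66%).

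The make-up of each library was compared by the number of miRNAs detected and by the share of the most abundant ones. After thinning to 4684611 counts, the depth of the smallest of the 15 libraries, 676 ± 4.80 miRNAs were detected in sham and 679 ± 1.10 in ICH (SD, n = 5), a difference of 3.2 (exact two-sided permutation test, p = 0.206, adjusted 0.302). Each library held 671 to 681 of the 683 names, close to the ceiling, which leaves this count little room to differ. The 10 most abundant miRNAs took 50.0 ± 5.10% of the counts in sham and 47.1 ± 0.919% in ICH, a difference of -2.97 percentage points (exact two-sided permutation test, p = 0.302, adjusted 0.302). Without sham 4 and 5 this difference was 0.529. The smallest p that 5 against 5 libraries allow is 0.00794.

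How many miRNAs were called depended on which libraries and which test were used. DESeq2 called 20 higher (2.95%) and 27 lower of 678, together 6.93%, and the edgeR fit without sham 3 called 14 higher (2.14%) and 17 lower (2.6%) of 653, together 4.75%, with 26 miRNAs shared by these lists. Without sham 2 there were 6 of each (0.919%), together 1.84%, without ICH 4 they were 11 and 0 (1.68%), and without sham 4 and 5 they were 6 (0.909%) and 1 (0.152%) of 660, together 1.06%. The 5 calls made with all libraries were all among those of DESeq2 and of the fit without sham 3, and 3 of them among those of the fit without sham 4 and 5. Of the 27 lower calls of DESeq2, 11 were in the Dlk1-Dio3 region, and of the 17 lower calls without sham 3, 7 were. The region holds 88 of the 652 miRNAs tested. In 17 of the 27 lower calls of DESeq2, sham 4 and sham 5 were the highest of the sham libraries, which held for 122 of the 652. DESeq2 and the fit without sham 4 and 5 shared 4 calls.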

How the data were processed

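The deposited tables give raw read counts per mature miRNA, not normalized; cutadapt, Bowtie, edgeR and the human build hg38 are named in the submitters' processing notes, although samples and miRNA names are mouse. Versions and the handling of reads with several loci are not given in the sources used here. Each of the 15 tables holds 929 count values against 928 names and starts with its library number, so every count was moved to the name 1 row above. With the move, 951 of 1060 row pairs of a name (89.7%) came within 0.1 on the log2 scale, against 724 of 1076 (67.3%) as printed. The highest-total row was kept for the 76 names on several rows, and 34 names share reads with a different name.

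Counts were tested in edgeR 4.0.16 under R 4.3.3 (TMM, filterByExpr, robust quasi-likelihood, no covariates) over 15 libraries, with Benjamini-Hochberg adjustment, and the steps were tested on simulated data. SE is the log2 fold change over the square root of F. Arm ratios used limma 3.58.1 with 0.5 added to each count. The 21 alternatives changed the scaling, filter, test (DESeq2 1.42.0, limma-voom), rows or libraries. The series' design text gives 5 mice a group, as many as there are libraries, without tying each library to 1 mouse. PCR reads carry no molecular identifiers. Gene positions are from GENCODE for GRCm38.p6. Members and lists were chosen with earlier results of these data known. Named miRNAs are those called, the 10 with the smallest p in each direction at 10 CPM or more, the 2 most abundant of each of 19 lists, the 10 most abundant, and those called in at least 8 alternatives. miRNAs named outside this rule were chosen after their values were seen: the remaining arms of listed hairpins, those with groups that do not overlap, and those that moved without sham 4 and 5.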

Additional observations from a re-analysis of the deposited data

Results flagged for a closer look

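Among 162 groups of 5 libraries checked, 8 held 1 library far from the other 4, by the gap to its nearest neighbour over the range of the group; chance gives this in about 1 in 20 groups. In sham 3, miR-21a-5p was at 9686 CPM against 15223 to 15928 CPM in the other sham libraries, its seed family at 9689 CPM against 15228 to 15932 CPM, and miR-29a-3p at 9629.9 CPM against 12985 to 13424 CPM. The log2 ratio of the miR-139 arms in sham 3 was 5.94 against 5.14 to 5.25. In ICH 3, miR-10a-5p was at 1513 CPM against 386 to 547 CPM in the other ICH libraries, and its seed family at 1611 CPM against 468 to 653 CPM. In sham 5, miR-155-5p was at 23.9 CPM against 12.7 to 14.7 CPM. In sham 2, miR-487b-3p was at 367 CPM against 447 to 460.1 CPM.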

How the results depend on the processing

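The 5 calls among miRNAs became 47 with DESeq2, 8 with non-robust estimation and 3 at a mean of at least 10 CPM, and 4 to 31 with 1 library left out, the highest without sham 3. The 2 called seed families became 4 without sham 4 and 5 and 1 to 8 with 1 library left out. The called cluster became 0 with relative log expression scaling, without sham 4 and 5 and in the 10 libraries alone, and 0 to 5 with 1 library left out; arm ratios gave 0 to 6, the 6 without sham 3. Sham and ICH libraries share replicate numbers, but the correlation of same-numbered deviations was -0.540 to -0.140 and no sham library correlated best with its own number, so the numbers were not taken as pairs. With the replicate block, 5 miRNAs, 1 seed family, 1 cluster and 0 arm ratios were called; the family was that of miR-10a, and the miR-21 family had 0.93 (adjusted p = 0.0779).

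Signs turned without sham 4 and 5 for the share of the 10 most abundant miRNAs (0.529 percentage points) and for the log2 fold changes of miR-150-5p (-0.076), miR-140-3p (0.31), miR-542-3p (0.51), miR-219a-2-3p (0.30), miR-1a-3p (0.18), miR-133a-3p (-0.10), miR-30a-5p (0.14), miR-26a-5p (0.12), miR-99a-5p (-0.033), miR-101a-3p (0.24), the miR-30 family (0.025) and the miR-30c-1/30e cluster (0.050). With every row kept they turned for miR-322-3p (-0.010), miR-9-5p (-0.011) and miR-143-3p (-0.00090). limma-voom with quality weights gave miR-210-3p 0.020 and miR-34b-5p 0.21, and miR-34b-5p was 0.014 with no filter, 0.030 with limma-voom and 0.0074 at 10 CPM. With 1 library left out, the ranges that crossed 0 were -0.15 to 0.026 for miR-210-3p, -0.42 to 0.052 for miR-140-3p, -0.080 to 0.33 for miR-10b-5p, -0.098 to 0.20 for miR-322-3p, -0.031 to 0.094 for miR-9-5p, -0.24 to 0.052 for miR-132-3p, -0.33 to 0.091 for miR-132-5p, -0.17 to 0.023 for miR-127-3p, -0.13 to 0.26 for miR-143-3p, -0.30 to 1.16 for miR-1298-5p, -0.13 to 0.48 for miR-34c-5p, -0.35 to 0.45 for miR-34b-5p, -0.15 to 0.033 for miR-26a-5p and -0.013 to 0.13 for miR-99a-5p. None of these was called with all libraries. Over 79 named results, 1416 alternative values kept direction and side of the threshold, 62 newly passed it, 21 lost it and 48 turned sign; the cause was not tested. Below about 10 CPM a level rests on few reads per library.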

Other observations

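A few miRNAs outside the lists owed a fold change beyond 2-fold to 1 library, and were picked out after their values were seen. miR-122-5p, a hepatocyte miRNA, was at 61.7 CPM in sham 1 against 6.10 to 9.11 CPM in sham 2 to 5 and 5.45 to 8.32 CPM in ICH (log2 fold change -1.39, adjusted p = 0.169, edgeR). miR-3968 was at 75.8 CPM in ICH 4 against 12.5 to 15.8 CPM in the other ICH libraries and 8.61 to 15.1 CPM in sham (1.12, adjusted p = 0.151). miR-3963 was at 68.1 CPM in ICH 4 against 9.63 to 15.2 CPM and 6.20 to 15.4 CPM (1.08, adjusted p = 0.204). None of the 3 was called.

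Of the miRNAs that edgeR called without sham 4 and 5, 2 more are given here, chosen after their values were seen. miR-152-3p was at 249, 278, 458, 1476 and 878 CPM in sham and 684, 882, 1033, 656 and 662 CPM in ICH. Its log2 fold change was 0.23 (adjusted p = 0.752) with all libraries and 1.24 (adjusted p = 0.00693) without sham 4 and 5. miR-540-3p of the Dlk1-Dio3 region was at 89.8, 94.4, 52.7, 38.8 and 41.7 CPM in sham and 40.4, 35.3, 36.2, 42.5 and 45.8 CPM in ICH. Its log2 fold change was -0.67 (adjusted p = 0.114) with all libraries and -0.99 (adjusted p = 0.0113) without them.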
